A study of Homo sapiens with 43 samples.

Results

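The genes for the proteins of the cytosolic ribosome were followed through RNA sequencing of H2087, an established human lung cancer cell line, and HCC1954, an established human breast cancer cell line. Members were the symbols RPL or RPS followed by digits and at most 1 letter A or X, with RPLP0, RPLP1, RPLP2 and RPSA, that had a mean of at least 10 normalized counts in each of the 4 deposited tables. Of 77 symbols that matched, 75 were kept: 42 proteins of the large subunit, 30 of the small subunit and the 3 stalk proteins. The other 2, RPL21 among them, were under that minimum in at least 1 table. In all, 18085 genes are listed for H2087 and 25369 for HCC1954. The rule used symbols and mean levels and no difference between groups, but it was chosen with earlier results of these data known.

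Each line was studied as parental cells and as latency-competent derivatives (LCC), which the labels describe as cells recovered from organs negative by bioluminescence imaging. All cultures were kept below confluence for 48 h in mitogen-low (MLM) or mitogen-rich (MRM) medium. Per medium, H2087 had 2 parental libraries and 6 LCC libraries, 1 for each derivative LCC1 to LCC6. HCC1954 had 3 parental libraries and 4 LCC libraries, 2 each for the derivatives LCC1 and LCC2. The labels list 31 RNA samples, of which 30 have values here, and 12 chromatin samples that were not analysed here. The labels do not say whether libraries of a group are separate cultures. The spread between parental libraries, and between the 2 libraries of an HCC1954 derivative, may therefore be technical. The 6 H2087 LCC libraries of a medium come from different derivatives. Fits of H2087 LCC against parental cells pool both kinds of spread in each p-value.

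A ribosome has a large subunit, which joins amino acids, and a small subunit, which reads the messenger RNA. Most of their proteins are present in a single copy per ribosome, while the stalk proteins RPLP1 and RPLP2 are present in more, and in vertebrates their output is matched largely at translation: most of these messages begin at a cytosine followed by a run of pyrimidines, the 5′ terminal oligopyrimidine (TOP) tract, which lets mTOR signalling and the LARP1 protein hold or release them together when growth factors change. A TOP message that is held back can stay in the cell, so a level of RNA does not report how much of it was translated.

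The start sites of members that the results below turn on show how this tract looks and that not every annotated start has it. RefSeq starts (GRCh38.p14) were found for 61 of the 75 members. Members without a start there included RPS2, RPS20, RPL23A, RPL7, RPL23, RPS15A, RPL5, RPL8, RPL37 and RPL30. In 45 of the 61 members (73.8%) at least 1 start was a C that opened a run of at least 5 bases C or T, read on the sense strand, against 5.14% of the 27305 genes with a start in the same table. The same was true of 71.4% of 14 elongation factor and other TOP genes and of 8.7% of 69 mitochondrial ribosomal protein genes. Each line below gives 12 bases before the start and 18 from it, 5′ to 3′, with the run that opens at the start in capitals. RPL9 and RPS26 have no such run at the annotated base.
RPS12 (chr6:132814557-132814586, plus strand): tgcggatgaggcCTCTTTCCCTgccgccgc
RPL26 (chr17:8383176-8383205, minus strand): cagcgtgtagttCTCTTCCCTTTTgcggcc
RPS21 (chr20:62387091-62387120, plus strand): gactagctgcttCCTTTCTCTCTCgcgcgc
RPLP1 (chr15:69452806-69452835, plus strand): taggcgcgagagCCCCTTTCCTCagctgcc
RPL13A (chr19:49487596-49487625, plus strand): caaaacctcctcCTTTTCCaagcggctgcc
RPS10 (chr6:34426052-34426081, minus strand): cgcatgctccttCCTTTCCagccccggtac
RPL35A (chr3:197950178-197950207, plus strand): cggggcctcgtcCTTCTCTTaccgccatct
RPL41 (chr12:56116621-56116650, plus strand): aacttcgcctttCTCTCggccttagcgcca
RPL9 (chr4:39458905-39458934, minus strand): cgtaatgacgacagacgttctttctttgct
RPS26 (chr12:56041906-56041935, plus strand): acacataacctcgattttcttccgccatcc

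Depth differed between media, with 44.65 to 55.65 M reads (M for 1e6) per H2087 library in MLM and 12.13 to 20.85 M in MRM, and with 24.85 to 28.12 M and 28.8 to 44.71 M in HCC1954. Medium and depth therefore cannot be told apart by these tables. 3 sets of libraries stood apart from their group by a chi-square over genes divided by its degrees of freedom. HCC1954 parental 3 in MLM differed from its fellows by 62.95 and 63.09, while those differed from each other by 7.57. The HCC1954 LCC1 libraries of MRM differed by 115.5, against 3.64 in MLM. H2087 LCC5 and LCC6 of MRM differed by only 6.93, against 25.9 to 111 for the other pairs. ERBB2, GRB7 and STARD3, neighbours that are amplified in ERBB2-positive breast cancer, summed to 7490 to 12220 CPM (reads per 1e6 reads) in HCC1954 and to 60.8 to 239.9 in H2087. The 3 lung markers measured summed to only 4.61 to 19.2 CPM in H2087 in MLM and 23.3 to 135.5 CPM in MRM, with SFTPC at 0 in parental cells of MRM. Blood markers summed to at most 3.27 CPM in any library.

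As a share of all reads counted in genes, the 75 members took 4.19% to 6.35% in H2087 and 3.55% to 5.02% in HCC1954. In H2087, parental cells held 6.16% and 6.26% in MLM and 5.31% and 5.56% in MRM, so the media did not overlap. H2087 LCC1 to LCC6 held 5.75%, 5.74%, 6.24%, 6.24%, 5.93% and 5.98% in MLM, and 5.29%, 4.88%, 6.35%, 4.19%, 5.34% and 5.79% in MRM. The mean was 5.98% ± 0.225 (SD, n = 6) in MLM and 5.31% ± 0.743 (SD, n = 6) in MRM, where LCC4 was lowest and LCC3 highest, and the media overlapped. In HCC1954, parental libraries held 3.55%, 3.67% and 4.37% in MLM and 4.203%, 4.184% and 4.18% in MRM, with the first pair in MLM below every other library. HCC1954 LCC1 held 4.53% and 4.31% in MLM and 4.59% and 5.02% in MRM, and LCC2 held 4.07% and 4.16% in MLM and 4.15% and 4.19% in MRM. In bulk RNA, fewer cells of a type and less RNA per cell cannot be told apart.

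**Figure D1:**
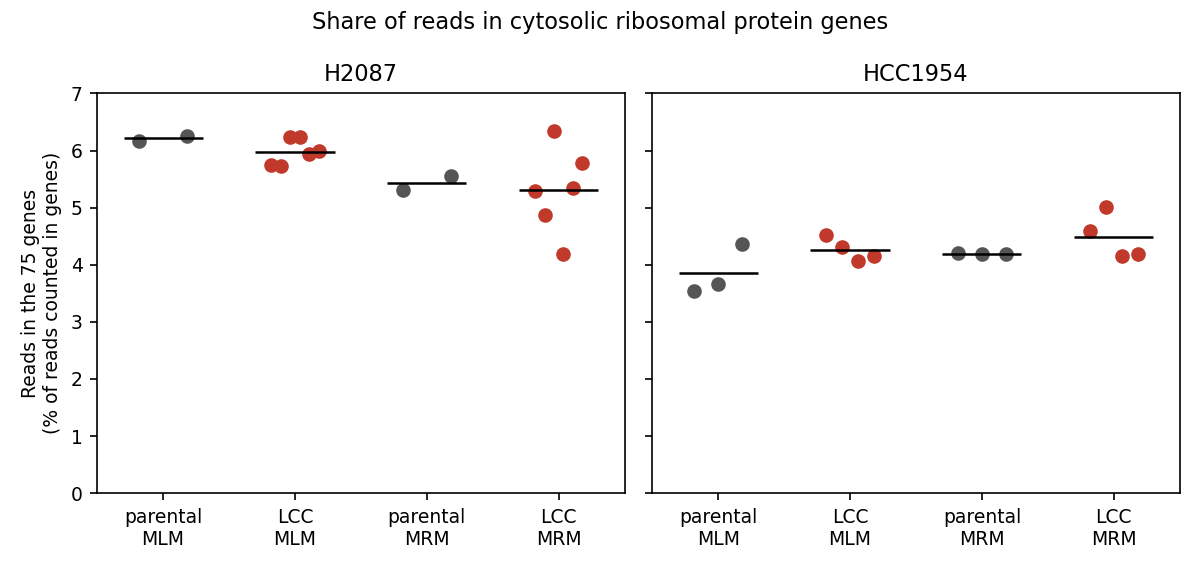
Share of reads in the 75 cytosolic ribosomal protein genes (% of reads counted in genes) by cell type and medium in each line, 1 point per library and a bar at the group mean. H2087 parental cells lie at 6.16% and 6.26% in MLM and at 5.31% and 5.56% in MRM, while the 6 H2087 LCC libraries of MRM spread from 4.19% to 6.35%.

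The first comparison asked whether the latency-competent cells differ from parental cells of the same medium. In H2087 the ribosomal protein genes as a group stayed at the level of other genes: the median log2 fold change of the 75 was 0.02 in MLM and 0.02 in MRM, beside 0.01 and 0.00 over all genes tested. A member was called when limma, fitted on log2 of the normalized count plus 1 over all genes, gave a Benjamini-Hochberg adjusted p under 0.05. In MLM, 0 members were higher and 4 were lower in LCC (5.33% of 75), beside 13.7% of 12480 genes called, 4.94% higher and 8.77% lower, and 10 members had an unadjusted p under 0.05. EdgeR on the recovered reads called 0 higher and 7 lower. In MRM, 2 were higher and 0 lower (2.67%), beside 14.6% of 12495 genes, 8.76% higher and 5.83% lower, with 3 members at an unadjusted p under 0.05 and the same counts from edgeR. With reads scaled to the library total, 1 member was higher and 7 lower in MLM, and TMM scaling, an alternative chosen after seeing the data, gave 1 and 4. Without LCC1 or LCC3 of MLM, 0 were higher and 2 lower, without LCC5 0 and 1, and without LCC6 1 and 6. The shares of all genes above come from the limma fits of all libraries and are no background for these refits.

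To name members that left the group, the median of the 75 was subtracted from each library before the fit, and a departure of at least 0.3 log2 with an adjusted p under 0.05 over all genes was required. In MLM 5 of 75 members left the common shift of H2087 LCC, 1 above and 4 below, beside 10.8% of all genes past the same rule. RPL32, a large subunit protein, stood at 13488 and 14023 normalized counts in the parental libraries of MLM and at 9684, 9213, 10915, 10776, 10354 and 10894 in LCC1 to LCC6. The groups did not overlap, as in 36.4% of all genes tested, and RPL32 was lower in LCC by a log2 change of -0.42 ± 0.08 (SE, adjusted p = 0.0131). RPL26, a large subunit protein near the exit of the peptide tunnel, stood at 25561 and 25899 in parental cells and 17901 to 21440 in LCC, with a log2 change of -0.37 ± 0.09 (adjusted p = 0.0288). RPL8, which lies close to the peptidyl transferase centre, was also lower (log2 change -0.34, adjusted p = 0.0428). RPL5, which with RPL11 carries 5S ribosomal RNA into the large subunit, fell by 0.30 on the log2 scale (adjusted p = 0.035). RPL11, its partner, had a log2 change of -0.11 ± 0.07 (adjusted p = 0.37).

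RPL35A, a large subunit protein whose gene is among those mutated in Diamond-Blackfan anaemia, went the other way. It stood at 21142 and 21542 in the parental libraries of MLM and at 23404 to 32604 in LCC, so every LCC library was above both parental ones. Its departure from the group was 0.40 ± 0.07 log2 (adjusted p = 0.00971), while its change before the group was subtracted was 0.42 ± 0.12 (adjusted p = 0.0564). When either parental library was left out, of these 5 members the departure of RPL32 alone was kept, and no member was called in the fit without subtraction.

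In MRM the 2 members that left the common shift were RPL37 and RPLP1, both above, beside 5.05% of all genes. RPL37, a zinc-binding protein of the large subunit, stood at 13643 and 13608 in the parental libraries and at 26705, 26344, 30196, 22421, 23970 and 23970 in LCC1 to LCC6. Its log2 change was 0.90 ± 0.12 (adjusted p = 0.00287), the largest of the 75. In MLM the parental libraries held 30852 and 31572 and LCC1 to LCC5 30171 to 34640, while LCC6 held 17380. Parental cells in MRM and LCC6 in MLM thus shared a low RPL37 level that no other H2087 library had. The LCC effect in MLM minus that in MRM was -0.99 ± 0.28 log2 (adjusted p = 0.0394), the 1 member of 75 called for that difference, beside 10.7% of 12535 genes, 4.08% higher and 6.64% lower. Without LCC6 of MLM the difference was -0.84. It was not called with reads scaled to the library total, where the value was -0.96, nor in 10 of the 16 fits that left out 1 library.

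RPLP1, which with RPLP2 forms the stalk arms that recruit elongation factors, stood at 20323 and 22789 in parental MRM and at 27120 to 37218 in LCC, a log2 change of 0.60 ± 0.13 (adjusted p = 0.0183). In MLM its parental libraries held 27052 and 28090 and LCC 27036 to 40958, and LCC6 was again the lowest. Leaving out either parental library of MRM ended the calls and the departures of both RPL37 and RPLP1, although the departure of RPL37 kept a size of 0.84 to 0.92 over the 8 fits that left out 1 library. Leaving out LCC1 or LCC5 ended the departure of RPLP1.

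Members that left the group in H2087 LCC against parental cells moved with the genes beside them. For each one, the median change was taken over up to 5 tested genes on each side along the chromosome, in RefSeq order and without members. For RPL37 in MRM the 10 neighbours, among them RICTOR, PRKAA1 and OXCT1, had a median change of 0.66, and for RPLP1 the median was 0.54. In MLM the neighbours of RPL32, RPL26, RPL8 and RPL5 had medians of -0.50, -0.57, -0.40 and -0.27, and those of RPL35A 0.41. The neighbours of all 5 members in MLM and of both in MRM lay on the member's side of the median of all genes. Among the other genes past the same rule that share was 74.4% in MLM and 68.3% in MRM. Across the 75 members, the change and the neighbours' median had a Pearson r of 0.802 in MLM and 0.628 in MRM, a description over genes that share their libraries. In LCC6 of MLM, RPL37 lay 0.71 log2 below its median library and its neighbours 0.92 below. The part of these regions in the results was not tested.

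**Figure D2:**
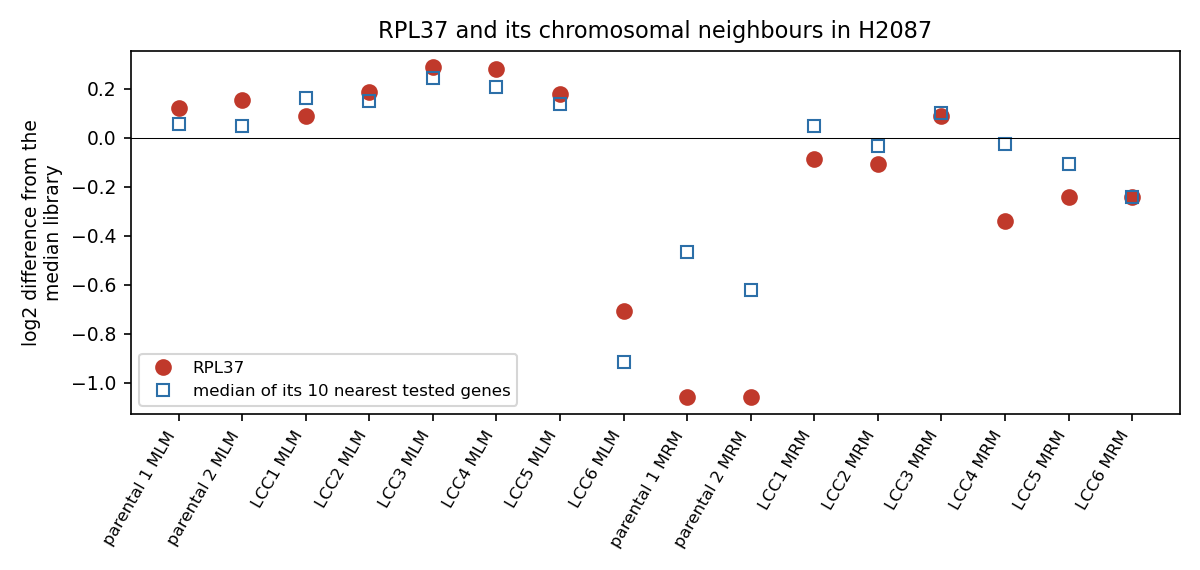
RPL37 (filled circles) and the median of its 10 neighbouring tested genes (open squares) in each H2087 library, as log2 difference from the median library. Both are low in the 2 parental libraries of MRM (RPL37 at -1.06 and -1.06) and in LCC6 of MLM (-0.71).

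The second comparison asked what the medium did in each cell type. In H2087 parental cells the median log2 change of the ribosomal protein genes, MLM over MRM, was 0.11, beside 0.03 over all genes. Of the 75, 35 were higher and 6 lower in MLM (54.7%), beside 72.6% of 12524 genes called, 38.2% higher and 34.4% lower. Of the large subunit, 22 were higher and 2 lower of 42, and of the small subunit 12 and 4 of 30. Without parental library 1 or 2 of MLM, 21 were higher and 1 lower, or 19 and 1.

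RPL37 changed most, from 13643 and 13608 in MRM to 30852 and 31572 in MLM, a log2 change of 1.196 ± 0.04 (adjusted p = 5.46e-07). Its neighbours had a median change of 0.81, and 8 of the 10 were called higher. RPL32 rose from 8522 and 8593 to 13488 and 14023 (log2 change 0.68), and RPL26 from 17804 and 17833 to 25561 and 25899 (0.53). RPS26, a small subunit protein at the messenger RNA exit channel, rose from 5869 and 6894 to 9861 and 10045, a log2 change of 0.65 ± 0.07 (adjusted p = 0.000131). RPS20 (0.55), RPL8 (0.48), RPS12 (0.45) and RPL15 (0.44) completed the 8 that left the shift above, beside 56.9% of all genes past the same rule in either direction. RPL13A, which besides its ribosomal place is known from a complex that silences inflammatory messages, was the 1 member below: it stood at 2465 and 2370 in MRM and 1562 and 1666 in MLM, a log2 change of -0.58 ± 0.05 (adjusted p = 3.83e-05). All 9 departures were kept when any 1 of the 4 libraries was left out. Here 5 of the 9 had neighbours on their own side of the median (55.6%), beside 60.9% of the other genes past the rule. RPS26, RPS20, RPS12 and RPL32 rose while their neighbours had medians of -0.16, -0.17, -0.48 and -0.12.

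For RPL32, RPL26 and RPL8 the 2 parental libraries of MLM stood above all 14 other H2087 libraries, so the lower level in LCC in MLM and the higher level of parental cells in MLM rest on the same libraries. The comparisons share these libraries, and their agreement is not independent. BOP1, a gene of ribosome biogenesis, had the same pattern, with 6148 and 6403 in parental MLM and 3197 to 4140 elsewhere.

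In H2087 LCC the median change of the members was 0.11, beside 0.01 over all genes. Of the 75, 6 were called higher and 1 lower (9.33%), beside 32.7% of 12466 genes, 15.9% higher and 16.7% lower. The higher ones were RPS26, RPS20, RPS12, RPS15, RPL11 and RPL12, and the lower one was RPL13A. The derivative is a shared cell line across media: libraries of the same derivative correlated at 0.416 to 0.762 in their deviations from the group means. The fit behind the counts above ignored this pairing. With the derivative as a replicate block, 14 were higher and 1 lower. The shares of all genes above come from the main fit and are no background for that count or for the refits that follow. Rescaling a library moves all of its genes together. With reads scaled to the library total 23 were higher and 0 lower, and TMM scaling gave 11 and 0. Without LCC3 of MRM, 16 were higher and 0 lower. Without LCC3, LCC4 or LCC5 of MLM, or LCC1 or LCC5 of MRM, 4 were higher and 0 lower.

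RPS26 and RPL13A left the common shift in LCC as in parental cells, beside 20.2% of all genes past the rule. RPS26 stood at 8685, 8395, 10631, 9943, 9392 and 9684 in LCC1 to LCC6 of MLM and at 6034, 6726, 7381, 6662, 7018 and 7041 in MRM, so every MLM library was above every MRM library. The media did not overlap, in either direction, for 16.1% of all genes tested. The log2 change of RPS26 was 0.47 ± 0.07 (adjusted p = 0.000258). RPL13A held 1442 to 1937 in MLM and 1495 to 2606 in MRM, which overlap, and was lower in MLM in LCC as in parental cells (log2 change -0.35 ± 0.12, adjusted p = 0.048). These departures, 0.36 and -0.46, held when any 1 LCC library was left out, and 2 members also left the shift without LCC6 in both media, an alternative chosen after seeing the data. Parental cells and LCC share no library in these fits.

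**Figure D3:**
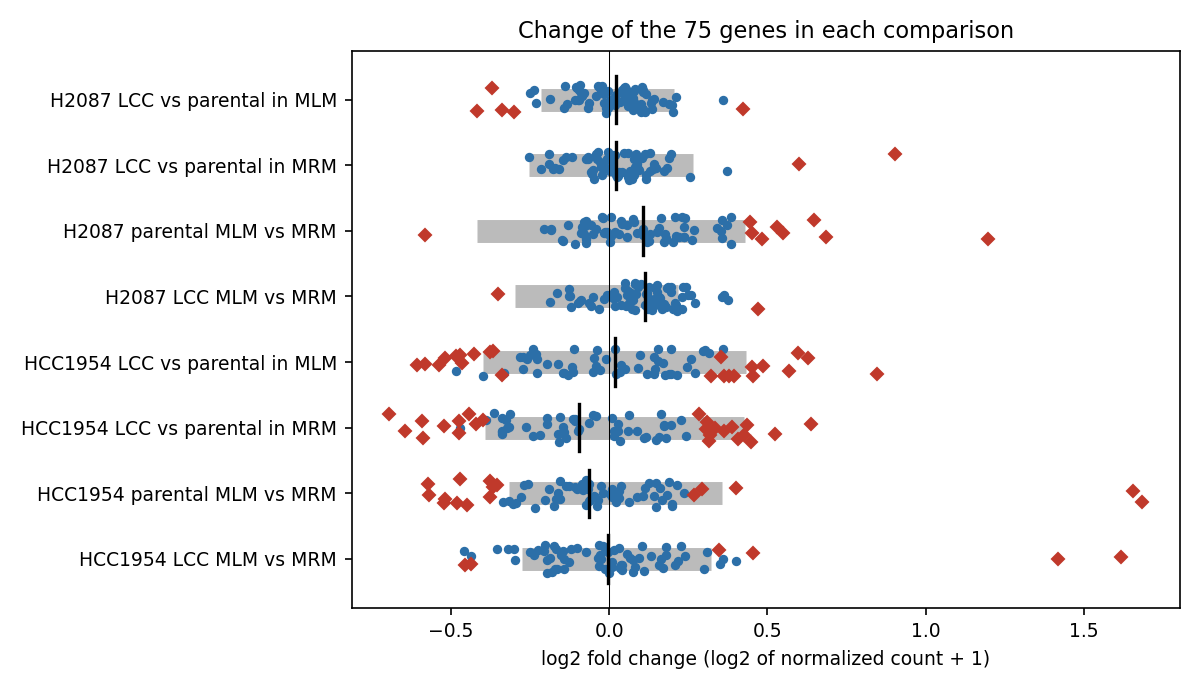
Log2 fold change of each of the 75 genes in the 8 comparisons of 2 groups (first named group over the second), with circles for members in the common shift, diamonds for members that left it, a black bar at the members' median and a grey band over the middle 50% of all genes tested. The H2087 media comparisons have medians of 0.11 and 0.11, and RPL17 and RPS10 lie apart at the right in both HCC1954 media comparisons.

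The main fits with HCC1954 LCC counted the 4 LCC libraries of a medium as separate, although they come from 2 derivatives. In MLM the chi-square per degree of freedom was 2.85 and 3.64 within a derivative, against 105.5 to 124.5 between derivatives. Calls and p-values may therefore overstate how far a change extends to LCC derivatives in general. In HCC1954 LCC, members lay on both sides of parental cells. The median change of the 75 was 0.02 in MLM and -0.10 in MRM, beside 0.00 and 0.00 over all genes, while single members ranged from -0.61 to 0.85 in MLM and from -0.70 to 0.64 in MRM. In MLM 9 were higher and 7 lower (21.3%), beside 36.5% of 15186 genes called, 17.6% higher and 18.9% lower. In MRM 4 were higher and 13 lower (22.7%), beside 38.4% of 15432 genes, 19.2% higher and 19.3% lower. The split moved with the scaling. With reads scaled to the library total, 23 were higher and 5 lower in MLM, and 21 and 8 in MRM, and the median of all genes moved to 0.11 and 0.12, against 0.13 and 0.03 for the members. Relative to all genes, members thus lay close to 0 in MLM and slightly lower in MRM under both scalings. Epithelial markers moved in the same comparisons: 1 of 5 was higher and 4 were lower in LCC in each medium, and their sum was 3203 to 5416 CPM in LCC and 7986 to 8758 CPM in parental cells. KRT8, KRT18 and CDH1 fell by 1.25, 1.35 and 0.76 on the log2 scale in MLM, and KRT19 was higher (1.15). Their part in the members' changes was not tested.

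Departures were compared between the media. In MLM 12 left above and 11 below, beside 29.5% of all genes past the rule, and in MRM 14 above and 10 below, beside 32%. Of these, 19 left on the same side in both media, 12 above and 7 below, which is 82.6% of those in MLM and 79.2% of those in MRM. Among the other genes past the same rule, 3028 were shared on the same side, 68% of 4456 in MLM and 61.6% of 4912 in MRM, and the difference from the members was not tested. The media share no library, but they share the cell lines. The LCC effect in MLM minus that in MRM was called for 0 of 75 members by limma, beside 0.156% of 15397 genes, 0.0649% higher and 0.0909% lower, with 2 members at an unadjusted p under 0.05, and edgeR also called 0.

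RPL9, a large subunit protein, rose most. Parental libraries held 13979, 13935 and 16446 in MLM and 18952, 18759 and 19779 in MRM. LCC1 held 29990 and 29702 in MLM and 32254 and 36269 in MRM, and LCC2 held 23340 and 23766, then 25470 and 26428. Every LCC library was above every parental library of its medium, beside 46.9% of all genes in MLM and 51.6% in MRM whose groups did not overlap. The log2 change of RPL9 was 0.85 ± 0.13 in MLM (adjusted p = 0.00255) and 0.64 ± 0.14 in MRM (adjusted p = 0.00995). RPS21, a small subunit protein, held 7839, 8652 and 10650 in parental MLM against 13095 to 14934 in LCC, and 9221 to 9736 against 12134 to 15939 in MRM. Its log2 changes were 0.63 ± 0.12 and 0.52 ± 0.11.

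RPL7A and RPL13, both of the large subunit, were above the group as well, with departures of 0.58 and 0.55 in MLM and 0.49 and 0.46 in MRM, but the derivatives differed: RPL7A stood at 64642 and 58946 in LCC1 and at 42305 and 41836 in LCC2 of MLM, against 31089 to 38274 in parental cells. The others above in both media were RPL26, RPL23A, RPS12, RPS3, RPS24, RPL35, RPL19 and RPL37A. RPL26 was thus above the group in HCC1954 LCC and below it in H2087 LCC of MLM.

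The 7 members below the group in both media included RPL37, RPL41, RPL10 and RPL22. RPL37 held 23793, 23696 and 28072 in parental MLM and 25023, 23885 and 24868 in parental MRM. LCC1 held 19577 and 18787 in MLM and 19703 and 20475 in MRM, and LCC2 held 15314 and 15856, then 15617 and 15624. Every LCC library was below every parental library, and the log2 change was -0.54 ± 0.12 in MLM (adjusted p = 0.0125) and -0.47 ± 0.13 in MRM (adjusted p = 0.0215). RPL41, the shortest protein of the ribosome, fell by 0.46 in MLM and by 0.47 in MRM on the log2 scale.

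RPL10, which joins the large subunit late and completes its catalytic centre, departed by -0.50 in MLM and -0.64 in MRM, yet its own change was not called (adjusted p = 0.107 and 0.0536). The derivatives again stood apart: LCC1 held 38122 and 36468 in MLM, beside 38868 to 45080 in parental cells, while LCC2 held 23322 and 23441. RPL35A held 8299 to 9722 in LCC of MLM against 12179 to 15631 in parental cells and was lower (log2 change -0.58, adjusted p = 0.00763), the opposite side of its departure in H2087 LCC. RPL22, which is dispensable for translation in mice and has the paralog RPL22L1, had a log2 change of -0.38 in MLM (adjusted p = 0.0537) and fell by 0.42 in MRM (adjusted p = 0.0304). RPL22L1 was higher in LCC of MRM, at 441, 611, 631 and 632 against 296, 298 and 305 (log2 change 0.93 ± 0.15, adjusted p = 0.00285), and held 324 to 427 against 218 to 382 in MLM, where it was not called. Between media the 2 genes moved to the same side in LCC. There RPL22L1 was lower in MLM than in MRM (log2 change -0.64, adjusted p = 0.0339), and RPL22 had a change of -0.44.

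**Figure D4:**
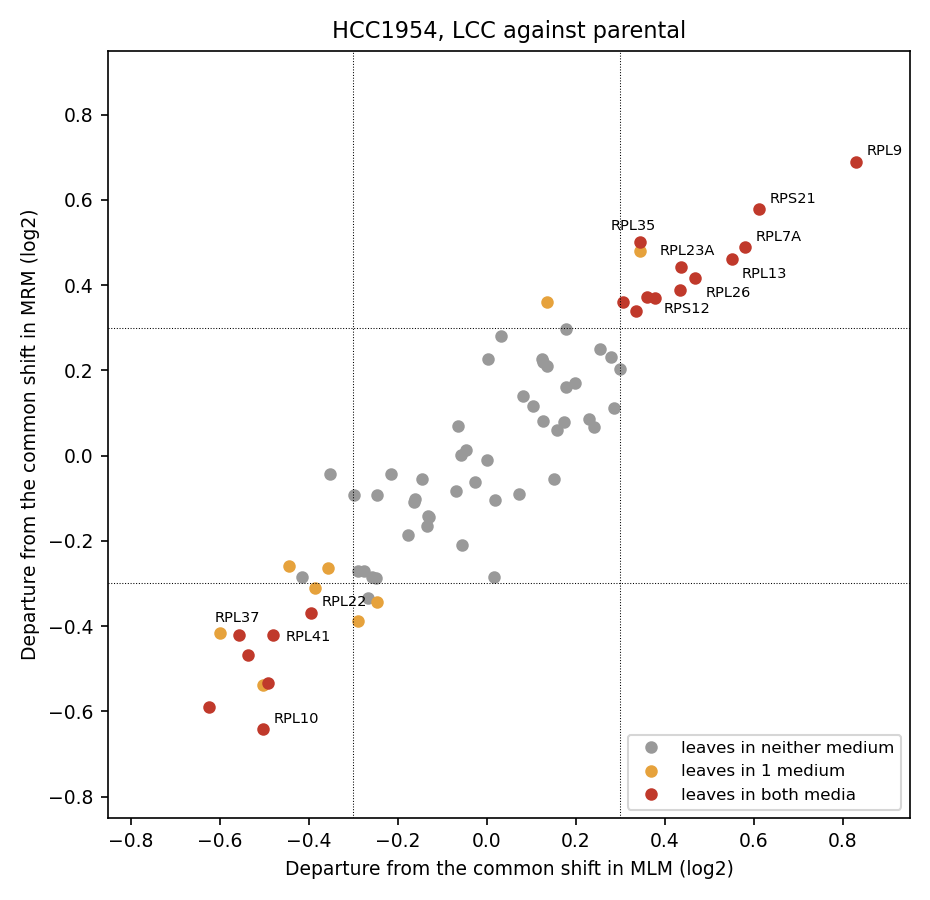
Departure of each of the 75 genes from the common shift, LCC against parental HCC1954 cells, in MLM (x axis) and MRM (y axis), both in log2, with dotted lines at 0.3. The 19 genes that left on the same side in both media run from RPL9 (0.83 and 0.69) to RPL10 (-0.50 and -0.64), and no gene left on opposite sides.

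The derivatives LCC1 and LCC2 differed from each other over most of the module. For 56 of 75 members (74.7%) the LCC1 and LCC2 libraries did not overlap and lay on the same side in both media. Beside them stood 51.5% of 14920 genes, in either direction. In 52 of the 56 LCC1 was higher, but no share of all genes by direction is given here to set beside that split. RPS16, a small subunit protein, differed most: LCC1 held 28245 and 25569 in MLM and 24813 and 26798 in MRM, and LCC2 held 13769 and 13597, then 11400 and 11161, with parental cells between them at 17266 to 22328. RPSA, also known as the 67 kDa laminin receptor precursor, was among the 4 members lower in LCC1. An average over these derivatives is not a value that either derivative had.

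In HCC1954 LCC against parental cells, the neighbours moved with the members as well. In MLM 20 of the 23 departing members (87%) had neighbours on their own side of the median of all genes, beside 77.4% of the other genes past the rule, and in MRM 22 of 24 (91.7%), beside 76.4%. Across the 75 members, the change and the neighbours' median had a Pearson r of 0.642 in MLM and 0.725 in MRM. Neighbours of RPL41, among them ERBB3 and SMARCC2, had medians of -0.68 and -0.67, those of RPL37 -0.47 and -0.35, and those of RPS21 0.64 and 0.29. RPL9 stood apart from its surroundings, with neighbours at 0.13 and -0.01. Between media, 9 of 16 departing members of HCC1954 parental cells (56.2%) had neighbours on their own side, beside 65.7% of other genes. In HCC1954 LCC it was 3 of 6 (50%), beside 74.8%, and in H2087 LCC 2 of 2, beside 55.5%. The Pearson r between media was 0.127 and 0.188 in HCC1954 parental cells and LCC, and 0.465 and 0.0298 in those of H2087. The part of the regions was not tested.

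The calls depended on few parental libraries. Without parental 3 of MLM, the library that stood apart, 19 members were higher and 6 lower in MLM. Without parental 1 or 2 of MLM, 2 were higher and 6 or 7 lower, and 12 left the common shift. In MRM, leaving out parental 1, 2 or 3 left 2 higher and 4, 4 or 5 lower, with 10 or 11 that left the shift. Without LCC1 library 2 of MRM, 8 were higher and 25 lower, and without LCC2 library 2, 4 and 6. The departures of RPL9, RPS21, RPL37 and RPL26 held in both media when any 1 library was left out.

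Between media, HCC1954 cells showed changes in both directions. In parental cells the median change, MLM over MRM, was -0.06, beside 0.02 over all genes, with 5 members higher and 16 lower in MLM (28%), beside 46.4% of 14877 genes called, 25.5% higher and 20.9% lower. Scaling by library totals gave 3 and 22. Without parental 3 of MLM, 8 were higher and 44 lower. Without parental 2 of MLM, 5 were higher and 8 lower, and without parental 1, 2 or 3 of MRM, 3 were higher and 9, 9 or 8 lower. Without parental 2 of MLM or any 1 parental library of MRM, 8 or 9 rather than 16 left the common shift. In LCC the median was 0.00, beside 0.03 over all genes, with 5 higher and 3 lower (10.7%), beside 11.9% of 15467 genes, 6.36% higher and 5.52% lower, and 4 higher and 6 lower with reads scaled to the library total. LCC libraries of 1 derivative correlated across media at 0.506 to 0.697, a pairing that the main fit ignored. With the derivative as a replicate block, 13 were higher and 13 lower, and 15 rather than 6 left the shift, 9 above and 6 below. The shares of all genes given here come from the main fits. They are no background for the counts with the block, with rescaled reads or without a library.

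RPL17 and RPS10 were the members farthest from the group. RPL17, a large subunit protein near the exit of the peptide tunnel, held 603, 635 and 844 normalized counts in parental cells of MLM and 198, 214 and 227 in MRM. In LCC it held 941, 953, 812 and 831 in MLM and 248, 348, 263 and 297 in MRM. Its log2 change was 1.68 ± 0.14 in parental cells (adjusted p = 0.000307) and 1.62 ± 0.14 in LCC (adjusted p = 0.000997). RPS10, a small subunit protein that is ubiquitinated when ribosomes collide, held 426, 438 and 537 in parental MLM against 123, 140 and 184 in MRM. In LCC it held 332, 375, 349 and 424 against 113, 175, 129 and 139. Its log2 changes were 1.66 ± 0.17 (adjusted p = 0.000602) and 1.42 ± 0.17 (adjusted p = 0.0032). For both genes every MLM library was above every MRM library. The media did not overlap, in either direction, for 60.5% of all genes in parental cells and 23.4% in LCC. The departures of both genes held in either cell type when any 1 library was left out.

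In H2087 RPL17 stood at 2546 to 4124 and RPS10 at 2558 to 3978, on a scale normalized separately, and neither left the common shift there. Both genes have annotated readthrough loci that share their exons, RPL17-C18orf32 and RPS10-NUDT3, and both loci are listed at 0 in all 14 HCC1954 libraries. How reads that fit more than 1 annotated locus were counted is not given in the sources used here, so the low and medium-dependent values of RPL17 and RPS10 in HCC1954 are uncertain. The same holds, more widely, for members with processed pseudogenes. The neighbours of RPL17 had median changes of 0.26 and 0.33, and those of RPS10 0.18 and 0.02.

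**Figure D5:**
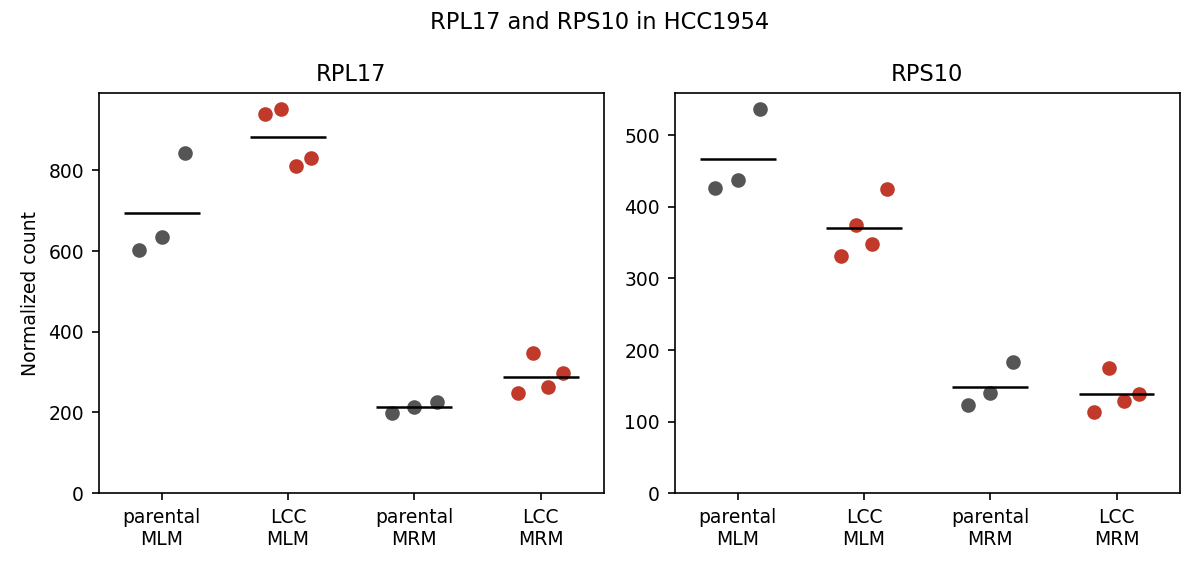
Normalized counts of RPL17 (left) and RPS10 (right) in HCC1954 by cell type and medium, 1 point per library and a bar at the group mean. All MLM libraries lie above all MRM libraries, for RPL17 at 603 to 953 against 198 to 348.

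Of the other members above the group in MLM, RPS27A and RPS14 left it in both cell types. RPS27A, made as a fusion with ubiquitin, rose by 0.40 and 0.45 log2, and RPS14, the gene of the 5q deletion syndrome, by 0.27 and 0.35. In parental cells the departure of RPS27A was kept in 4 of the 6 fits that left out 1 library, and that of RPS14 in 2. RPL13A was above the group in parental HCC1954 (0.35), the opposite of both H2087 cell types, but this departure was kept in only 1 of those 6 fits. Below the group in parental cells were RPL36A, RPLP2, RPSA, RPL23A, RPL22, RPL39, RPS15A, RPL9, RPS27, RPS12 and RPS24, beside 32.5% of all genes past the rule. Of these, RPL36A, RPS27, RPS12 and RPS24 were each kept in 1 of the 6 fits, RPL9 in 2 and the others in all 6. RPLP2, the stalk partner of RPLP1, held 7250, 7023 and 8935 in MLM against 11573, 11504 and 11157 in MRM, a log2 change of -0.57 ± 0.10 (adjusted p = 0.00365). RPSA held 8369, 8678 and 10861 against 13297, 13020 and 13522 (log2 change -0.52, adjusted p = 0.00631).

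In LCC 4 left above and 2 below, beside 6.64% of all genes. The 2 below were RPL23A and RPL22, which also left below in parental cells. RPL23A, which sits where the signal recognition particle docks, held 14855 to 17842 in MLM against 20223 to 25606 in MRM (log2 change -0.46, adjusted p = 0.0344). RPLP2 fell by 0.36 on the log2 scale in LCC (adjusted p = 0.023). Without any 1 LCC library of MLM, or LCC2 library 1 or 2 of MRM, RPL17 and RPS10 alone were called, and alone left the shift, in LCC. Without LCC1 library 1 of MRM, 3 were higher and 2 lower.

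Members of fixed roles moved apart from each other. The stalk base RPLP0 was called in 1 comparison, in LCC of HCC1954 in MRM (log2 change -0.34, adjusted p = 0.028), where RPLP1 also fell (-0.39, adjusted p = 0.0292) and RPLP2 had a change of 0.03. RPS6, the substrate of the S6 kinases, was called once, in H2087 parental cells, where it was lower in MLM (-0.21, adjusted p = 0.00275). RPS19, the gene most often mutated in Diamond-Blackfan anaemia, was called once as well, lower in MLM of H2087 parental cells (-0.15, adjusted p = 0.0308). RPL3, at the catalytic centre, was called in no comparison. RPL39, in the peptide tunnel, was lower in MLM of HCC1954 parental cells (-0.47, adjusted p = 0.00909). RPL11 was higher in MLM in both H2087 cell types (0.39 and 0.26). RPS27 and RPS4X were higher in MLM in H2087 parental cells (0.26 and 0.20) and lower in HCC1954 parental cells (-0.38 and -0.31). Over the 8 comparisons of 2 groups, 42 of the 75 members left the common shift at least once and 33 never did. In single comparisons 5.05% to 56.9% of all genes passed the same rule. The share of all genes past it at least once is not given here, so the count of 42 has no background. RPL13A, RPL22, RPL23A, RPL26, RPL37 and RPS12 left the common shift in 4 comparisons each, some of which share libraries and are not independent.

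The presence of the TOP run at an annotated start did not line up with 1 direction. In H2087 parental cells, of 45 members with the run 16 were higher and 6 lower in MLM (median 0.01), and of 16 without it 10 were higher and 0 lower (median 0.17). In HCC1954 parental cells the medians were -0.06 and -0.07, and in the H2087 LCC media comparison 0.11 and 0.10. These are descriptions with no test.

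Genes that work with the ribosome were read from lists kept apart from the members. Of 54 ribosome biogenesis genes in H2087, 0 were higher and 18 lower in LCC than in parental cells of MLM (median -0.23), beside 4.94% and 8.77% of all genes. In MRM 5 were higher and 1 lower, beside 8.76% and 5.83%. In parental cells 38 were higher and 5 lower in MLM than in MRM (median 0.24), beside 38.2% and 34.4%. NOP10, of the pseudouridylation complex, was higher in MLM in parental cells by 1.11 log2 (adjusted p = 2.6e-06). In HCC1954, 16 were higher and 3 lower in LCC of MLM (median 0.23), beside 17.6% and 18.9% of all genes, and 6 and 2 in MRM, beside 19.2% and 19.3%. The MLM counts of the 2 lines thus had opposite directions. In MRM more genes were called higher than lower in both lines, but few were called. The MRM medians were -0.03 in H2087 and 0.20 in HCC1954. BYSL, needed for the small subunit, was higher in LCC by 1.04 and 0.96 log2. Mitochondrial ribosomal proteins in H2087 parental cells were higher in MLM in 48 and lower in 8 of 76 (median 0.27), and in LCC in 25 and 0 (median 0.16), where 15.9% of all genes were higher and 16.7% lower.

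The counts that follow stand beside 38.2% of all genes higher and 34.4% lower in MLM in H2087 parental cells, and 25.5% and 20.9% in HCC1954 parental cells. Of 18 elongation factor and other TOP genes in H2087 parental cells, 6 were higher and 4 lower in MLM (median 0.05), and of 20 in HCC1954 parental cells 3 and 7 (median -0.11). EEF2, the translocase, was lower in MLM in H2087 parental cells (-0.27) and higher in HCC1954 parental cells (0.38). Of 27 initiation factors, 16 were higher and 6 lower in MLM in H2087 parental cells (median 0.26), and 1 and 9 in HCC1954 parental cells (median -0.07). Of 16 RNA polymerase I genes 7 were higher and 5 lower, and 5 and 4, in the same 2 comparisons. Of 21 TOR pathway genes and TOP regulators 12 were higher and 7 lower in H2087 parental cells (median 0.13), and 11 and 4 in HCC1954 parental cells (median 0.29). Of 14 chaperones of ribosomal proteins 10 were higher and 3 lower, and 3 and 4. Of 6 ribosomal protein paralogs 4 were higher and 0 lower in H2087 parental cells, led by RPL36AL (log2 change 0.63). FAU, whose product carries a ribosomal protein as a fusion, and GNB2L1, which encodes RACK1, were outside the rule. GNB2L1 was called in no comparison, and FAU was higher in LCC of HCC1954 in MLM (0.39, adjusted p = 0.0472).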

How the data were processed

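Values were deposited by the authors as tables of normalized counts, a signal that equals whole reads per gene divided by a library size factor. Per the submitters' processing notes, Bowtie2 2.2.4, HTSeq 0.6.1p1 and DESeq2 1.8.1 were used with hg19 and GRCh37; their order and settings are not given in the sources used here. Whole reads were recovered for 100% of values (tolerance 0.01). Both media of a line share 1 median-of-ratios scale, with a difference from the recomputed factors of at most 7.43e-11, so media were compared within a line. Lines were not.

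All tests used limma 3.58.1 (R 4.3.3) on log2(value + 1), trended and two-sided, over all genes with a mean of at least 10, with Benjamini-Hochberg adjustment; fold changes are on that scale and understate those of low genes. EdgeR 4.0.16 on the recovered reads was an alternative, since the deposited values are not counts. The fits were tested on simulated data. Other alternatives were the library total, TMM (added after seeing the data), no filter, a pseudocount of 10, a replicate block, a departure of 0.5, centring on the members' mean and leaving out each library. All 75 members passed the filter in each fit.

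LCC numbers name derivative cell lines and pair libraries across media (correlations 0.416 to 0.762 in H2087, 0.506 to 0.697 in HCC1954). The main fits of LCC between media did not use this pairing, and the p-values of single genes come from them. Members named are up to 6 per direction that left the common shift by size, those that left in at least 2 comparisons, and fixed roles (RPLP0, RPLP1, RPLP2, RPL5, RPL11, RPL3, RPL10, RPL22, RPL39, RPS6, RPS3, RPS14, RPS19, RPS27, RPS27A, RPS4X, RPSA); RPS16, BOP1 and RPL22L1 were picked after their values were seen. Of 16550 tested genes 16082 were placed in the RefSeq order. The members and lists were chosen with earlier results of these data known. Results of some members are not reported here by name.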

Additional observations from a re-analysis of the deposited data

Results flagged for a closer look

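Dixon's test was applied to the members' share of reads and to the members that left the common shift in the LCC groups, 102 groups of libraries in all, of which 4 had a library far from the others; chance gives about 1 in 20. RPL37 held 17380 normalized counts in LCC6 of H2087 in MLM, below the other 5 derivatives. In the HCC1954 LCC libraries of MRM, RPL35A held 7613 in LCC1 library 1, below the others, while RPS26 held 4145 and RPS27A 9200 in LCC1 library 2, above the others. These are the 2 libraries of 1 derivative that differed most from each other. The LCC effect on RPL37 in H2087 differed between media by -0.99 log2 in the test of the difference itself.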

How the results depend on the processing

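No named member that was called or departed changed sign in any refit. Members called (LCC against parental) were 7 with edgeR, 8 with the library total and 2 without a filter in H2087 of MLM, in place of 4. For HCC1954 the library total gave 28 in MLM, in place of 16, and 29 in MRM, in place of 17. Between media, H2087 LCC had 23 with the library total, 11 with TMM and 15 with the replicate block, in place of 7; HCC1954 LCC had 5 without a filter and 26 with the replicate block, in place of 8, and 15 departing with the block, in place of 6. For the difference of LCC effects in H2087, edgeR gave 2, the library total 0 and the replicate block 3, in place of 1. With the parental library number as a replicate block, 46 and 22 members were called in H2087 and HCC1954, but same-numbered libraries correlated at only 0.0708 and at 0.0118, 0.146 and 0.0997, so the numbers do not pair them. A departure of at least 0.5 left 0, 4, 0, 9, 7, 4 and 2 members in H2087 LCC of MLM, H2087 parental media, H2087 LCC media, HCC1954 LCC of MLM and MRM, and HCC1954 parental and LCC media, in place of 5, 9, 2, 23, 24, 16 and 6; a stricter cut-off keeps fewer by construction. Shares of all genes are not set beside the counts of these refits. The cause of the other shifts was not tested.

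Leaving out 1 library, members called ranged from 0 to 7 and 0 to 3 in H2087 LCC of MLM and MRM, 20 to 50 and 4 to 16 in the H2087 parental and LCC media, 8 to 25 and 6 to 33 in HCC1954 LCC of MLM and MRM, and 11 to 52 and 2 to 8 in its parental and LCC media. Departing members ranged from 1 to 6, 0 to 2, 10 to 13, 2 to 3, 12 to 22, 10 to 28, 8 to 15 and 2 to 7 in the same order. The differences of effects ranged from 0 to 3 in H2087 and 0 to 0 in HCC1954. The lone library left in an arm is then assumed to vary like the others. Over these refits, departing members met the rule 415 times and missed it 174 times, and changes kept their side of the threshold 471 times and lost it 262 times. Counting LCC5 and LCC6 of MRM as 1 library, chosen after seeing the data, left 2 called and 2 departing against parental H2087 cells. Small groups, with 2 parental libraries in H2087 and 2 derivatives in HCC1954, limit these results, and the effect of depth was not tested.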
